A study of Mus musculus with 39 samples.

Results

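The genes described here encode the constitutive proteasome, its activators and its assembly factors. They were taken as all genes whose symbol is Psm, a letter from a to g and a number, leaving out Psmb8, Psmb9 and Psmb10, and 45 such genes were present among the 24537 genes of the table for kidney, liver and lung and among the 52508 genes of the table for skin. RNA was measured in whole kidney, liver, lung and skin of C57BL/6 mice that all lacked perforin (Prf1-/-), a protein that cytotoxic lymphocytes use to kill target cells, and no perforin-sufficient mice were part of these libraries. The young group was 3 months old and untreated. The vehicle group was 20 months old at harvest and had been given vehicle solution. The ABT737 group was 20 months old and had received ABT-737, a small molecule inhibitor of anti-apoptotic BCL-2 family proteins, at 25 mg/kg. Dosing began at 18 months of age and was given on 2 days in a row, monthly, over 2 months. Each tissue had 3 vehicle and 3 ABT737 libraries, and 4 young libraries in kidney, liver and lung and 3 in skin, which gave 39 libraries. The treatment labels of ABT737 replicates 4 and 5 carry higher compound numbers than ABT-737, whereas the titles and the treatment protocol name ABT-737 throughout, and these libraries were kept in the ABT737 group. Transcripts were counted from their 3′ ends, and kidney libraries held 1431814 to 3513311 counts, lung libraries 1046508 to 2600092 and skin libraries 1493411 to 3842808, whereas liver libraries held 223957 to 891116. Liver was thus the shallowest tissue, and its vehicle replicate 3, with 223957 counts, the shallowest library, but by the dispersion fitted to the counts its libraries varied less among themselves (23.5%) than those of skin (34.9%) or lung (31.7%), with kidney lowest (16.5%). Defining markers of each labelled tissue were present in all of its libraries, led by Slc34a1 in kidney, where that transporter gene of the proximal tubule reached 4960 to 7410 CPM (library-size scaled counts, with TMM factors), and by Alb in liver at 8910 to 41200 CPM.

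The proteasome degrades proteins marked with ubiquitin. Its core particle is a barrel of alpha rings, which gate the entrance, and beta rings, in which Psmb5, Psmb6 and Psmb7 carry the chymotrypsin-like, caspase-like and trypsin-like active sites. The regulatory particle caps the barrel: its base holds the ATPases Psmc1 to Psmc6, which unfold the substrate and thread it into the barrel, and its lid holds Psmd14, the deubiquitinase that cuts ubiquitin off the substrate. Alternative caps do not need ubiquitin, and among them are PA28, built from Psme1 and Psme2, and PA200, encoded by Psme4. Interferon-gamma raises Psme1 and Psme2 and also Psmb8, Psmb9 and Psmb10, which replace the 3 constitutive catalytic subunits in the immunoproteasome. Cells that lose proteasome activity raise the constitutive subunits together through the transcription factor Nfe2l1 (NRF1), which binds antioxidant response type elements.

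The promoters of the members on which the results turn, and of the catalytic subunits that held an antioxidant response core, are shown because genes that encode parts of the same machine changed here in different directions. RefSeq promoters of the GRCm38.p6 build, each running from 250 bases before to 50 bases after the annotated start, were found for 37 of the 45 genes. Capitals mark matches, on either strand, to the interferon-stimulated element core GAAANNGAA in Psme1 (chr14:55578244-55578543, plus strand), to the antioxidant response core TGACNNNGC in Psme4 (chr11:30771525-30771824, plus strand), Psmb5 (chr14:54617946-54618245, minus strand) and Psmb6 (chr11:70525107-70525406, plus strand), and to CCAAT in Psmd14 (chr2:61711444-61711743, plus strand) and Psma1 (chr7:114276067-114276366, minus strand).
Psme1: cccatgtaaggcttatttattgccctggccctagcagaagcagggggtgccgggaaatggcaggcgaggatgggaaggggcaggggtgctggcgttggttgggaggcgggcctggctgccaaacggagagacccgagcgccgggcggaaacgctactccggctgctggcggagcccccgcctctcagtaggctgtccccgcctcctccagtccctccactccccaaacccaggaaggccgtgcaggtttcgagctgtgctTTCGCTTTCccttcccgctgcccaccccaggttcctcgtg
Psme4: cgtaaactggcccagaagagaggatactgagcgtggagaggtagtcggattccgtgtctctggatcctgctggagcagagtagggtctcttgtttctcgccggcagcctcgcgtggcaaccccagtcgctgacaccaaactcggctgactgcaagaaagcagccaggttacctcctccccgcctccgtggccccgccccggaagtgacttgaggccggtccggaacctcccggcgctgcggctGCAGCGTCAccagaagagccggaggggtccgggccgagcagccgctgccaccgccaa
Psmb5: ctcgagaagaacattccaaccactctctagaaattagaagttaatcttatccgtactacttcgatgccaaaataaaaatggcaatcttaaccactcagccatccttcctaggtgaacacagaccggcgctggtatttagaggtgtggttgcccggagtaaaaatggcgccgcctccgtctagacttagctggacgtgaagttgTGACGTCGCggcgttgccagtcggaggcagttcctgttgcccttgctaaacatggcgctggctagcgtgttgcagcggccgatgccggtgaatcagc
Psmb6: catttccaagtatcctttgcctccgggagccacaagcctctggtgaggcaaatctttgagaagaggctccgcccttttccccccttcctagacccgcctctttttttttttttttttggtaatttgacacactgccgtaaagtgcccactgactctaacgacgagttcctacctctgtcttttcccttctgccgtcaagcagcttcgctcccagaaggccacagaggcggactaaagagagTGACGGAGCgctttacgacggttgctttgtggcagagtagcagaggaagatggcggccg
Psmd14: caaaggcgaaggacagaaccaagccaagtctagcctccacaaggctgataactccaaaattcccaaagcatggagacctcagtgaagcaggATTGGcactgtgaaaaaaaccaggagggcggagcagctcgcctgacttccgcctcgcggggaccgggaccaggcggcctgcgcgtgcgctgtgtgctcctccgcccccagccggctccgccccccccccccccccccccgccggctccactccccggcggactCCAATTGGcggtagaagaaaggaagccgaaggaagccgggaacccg
Psma1: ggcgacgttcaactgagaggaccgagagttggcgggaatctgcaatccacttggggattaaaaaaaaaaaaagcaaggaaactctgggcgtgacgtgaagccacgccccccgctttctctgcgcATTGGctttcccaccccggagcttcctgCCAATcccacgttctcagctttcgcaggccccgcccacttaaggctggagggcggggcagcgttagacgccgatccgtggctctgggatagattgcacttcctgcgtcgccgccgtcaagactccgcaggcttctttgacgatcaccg
In Psmd14, 2 of the 3 CCAAT matches lie on opposite strands and share bases. Each of the other searched motifs could lie anywhere in the 300 bases, and 0 pairs of sites of different motifs overlapped in these genes. The antioxidant response core was present in 6 of the 37 genes (16.2%) and in 12.4% of all 32851 promoters of the table. CCAAT was present in 13 genes (35.1%) against 37.4% of all promoters, the interferon-stimulated core in 7 (18.9%) against 8.56%, and the interferon-gamma activated core TTCNNNGAA in 2 (5.41%) against 8.3%. Member shares count genes, and the 37 genes had 40 promoters, whereas the shares of all promoters count single promoters. A gene with several promoters therefore had more chances to match. A match describes letters in a window and not a bound site.

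As a whole the constitutive proteasome took between 0.298 and 0.52% of the counts of a library, and its summed level differed little between the groups of kidney and of skin. In kidney the summed level of the 45 genes was 4740 ± 220 CPM in young mice (SD, n = 4), 4510 ± 258 CPM in vehicle mice (n = 3) and 4730 ± 156 CPM in ABT737 mice (n = 3), and the 3 groups overlapped. In skin it was 4110 ± 179, 4230 ± 305 and 4380 ± 285 CPM (n = 3 each). In liver the sums were 3590 ± 130, 3660 ± 371 and 3210 ± 20.6 CPM, and every ABT737 library, at 3189 to 3230 CPM, lay below every young and vehicle library. In lung they were 3620 ± 103, 4480 ± 534 and 3660 ± 447 CPM, and all 3 vehicle libraries, at 4003, 4390 and 5058 CPM, lay above the 4 young ones, the highest of which was at 3745 CPM. None of these differences reached an exact two-sided permutation p under 0.05, which 3 libraries against 3 or 4 cannot give (smallest p 0.1 and 0.0571). The lung difference of 866 CPM, or 23.9%, was at that smallest p of 0.0571, with an adjusted p of 0.171 over the 15 sums compared. These are bulk tissues, in which fewer cells of a type and less RNA per cell cannot be told apart.

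**Figure D1:**
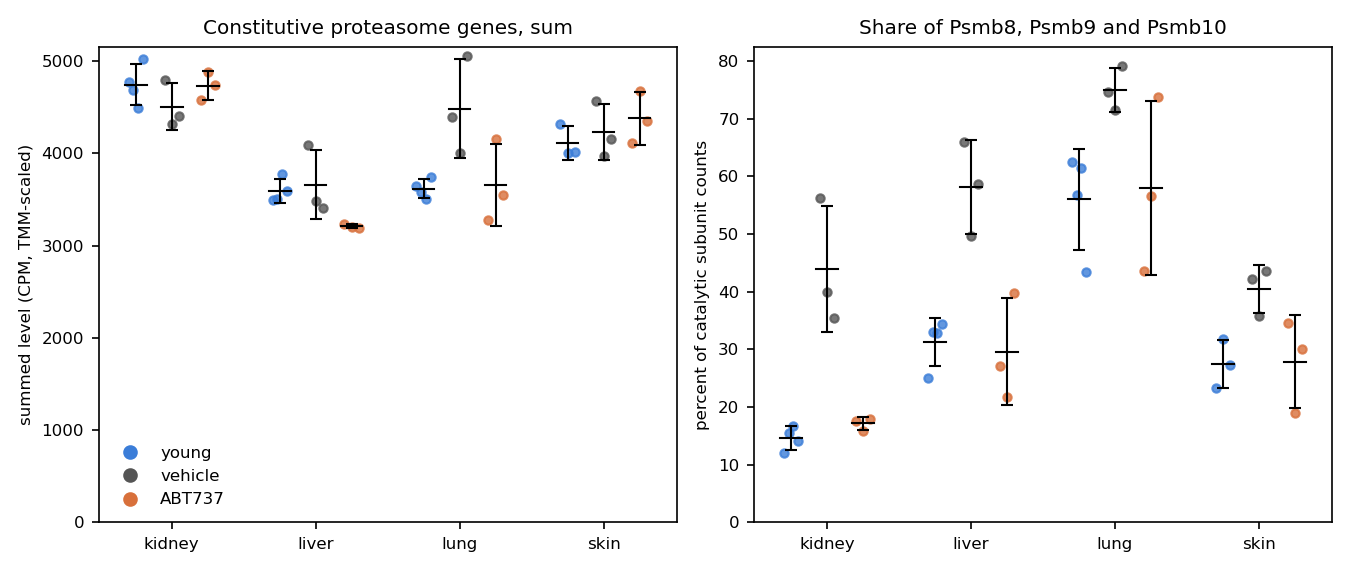
Summed level of the 45 constitutive proteasome genes (left, CPM scaled by the trimmed mean of M values) and the percent of catalytic subunit counts that came from Psmb8, Psmb9 and Psmb10 (right), by tissue and group. Points are libraries, and horizontal lines with bars are the mean and SD. The sums change by at most 23.9% with age, whereas the kidney share goes from 14.6% in young to 43.9% in vehicle and 17.2% in ABT737 libraries.

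Not every gene could be tested. After low genes were removed, the test covered 43 of the 45 in lung, 42 in kidney and in skin, and 38 in liver. Psma8, an alpha subunit of the testis, and Psmb11, the thymus subunit, were too low in every tissue. Liver also lacked Psma1, Psma4, Psmc6, Psmd10 and Psme2, and skin lacked Psma4. A member that passed because it was high in 1 group could hardly fail to differ, and the counts, given over tested genes, include such members. Psma6, Psmd5, Psmd14, Psme4 and Psmg2 passed in liver only with the young libraries, and Psma4 passed in lung only with the ABT737 libraries. Psme2, the PA28 partner of Psme1, had 0 to 31 counts in each library, at most 11.8 CPM. A related locus, Psme2b, which is not a member by its symbol, was at 73.5 to 82.7 CPM in young kidney and at 218, 116 and 127 CPM in vehicle kidney. The last 300 bases of Psme2 share 8.81% of their 40-base words with Psme2b, those of Psme2b share 69.7% of theirs with Psme2, and how reads of both loci were assigned is not stated, so Psme2 is uncertain.

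In kidney, Psme1 was higher in old vehicle mice than in young mice and a few other members were lower. Of the 42 tested genes 2 rose and 5 fell (adjusted p under 0.05, edgeR quasi-likelihood test), beside 7.75% of all genes higher and 5.5% lower. The median log2 fold change was -0.16 against 0.01 for all genes, and 33 of the 42 values were negative, including all 7 alpha subunits. Psme1 (chr14:55578494-55581527) was at 148, 119, 155 and 167 CPM in young kidney and at 314, 233 and 203 CPM in vehicle kidney. It rose 1.70-fold, with no overlap (log2 0.77 ± 0.17 SE, adjusted p = 0.00796). The assembly chaperone Psmg4 rose by 0.46 ± 0.14 on the log2 scale (adjusted p = 0.0411), from 54.8 to 66.2 CPM in young to 77.3 to 85.6 CPM in vehicle libraries, a call that was lost with no expression filter (adjusted p = 0.079) and in 7 of 10 fits with a library left out.

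The genes that fell in kidney were an alpha, a catalytic and a lid subunit, an ATPase and a cap. Psmd14 (chr2:61711694-61800376), the lid deubiquitinase, was at 63.5, 74.1, 74.9 and 77.1 CPM in young and at 55.8, 31.5 and 41.8 CPM in vehicle kidney (log2 -0.73 ± 0.18, adjusted p = 0.0152). Psme4 (chr11:30771775-30880361), the PA200 cap, was at 32.6, 48.2, 55.6 and 53.5 CPM in young and at 27.9, 14.4 and 31 CPM in vehicle kidney (log2 -0.93 ± 0.27, adjusted p = 0.0337). For both, the lowest young library lay above the highest vehicle library, and vehicle replicate 4 was the lowest of all. The ATPase Psmc2 fell by 0.44 on the log2 scale (adjusted p = 0.0273), the trypsin-like subunit Psmb7 fell by 0.45 (adjusted p = 0.0384) and the alpha subunit Psma1 fell by 0.65 (adjusted p = 0.0479). The number of called members depended on single libraries: 7 became 3 without young replicate 2, 2 without young replicate 3, young replicate 4 or vehicle replicate 5, and 1 without vehicle replicate 4. The call of Psme1 held whichever of the 10 libraries was left out.

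Liver showed the same pair of activators moving in opposite directions. Of 38 tested genes 2 rose and 3 fell with age, beside 11.7% of all genes higher and 10.8% lower, and the median log2 fold change was -0.18 against 0.02 for all genes. Psme1 was at 126, 149, 255 and 249 CPM in young liver and at 703, 336 and 419 CPM in vehicle liver. It rose 2.45-fold (log2 1.29 ± 0.30, adjusted p = 0.00653), and the groups did not overlap. Psme4 was at 36.8, 35.8, 47.6 and 30.7 CPM in young liver and at 4.36, 8.19 and 12.8 CPM in vehicle liver. It fell 3.90-fold (log2 -1.97 ± 0.35, adjusted p = 0.00106), a difference of 90 counts in the 4 young libraries against 18 in the 3 vehicle libraries. Both calls held whichever of the 10 libraries was left out. Psme4 passed the expression filter of the liver, 18.3 CPM in at least 3 libraries, through its 4 young libraries alone, and no old library reached it, so it could hardly have been tested without being lower in old mice. Its call held with no filter (log2 -2.04 ± 0.43, adjusted p = 5.57e-05), and it could not be tested with at least 10 counts in every library.

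Among the lid subunits of the liver, Psmd14 was at 25.2, 43.2, 50.7 and 51.8 CPM in young and at 0, 10.5 and 24.4 CPM in vehicle libraries, and fell (log2 -1.55 ± 0.43, adjusted p = 0.0178). It too passed the filter through its young libraries, with 1 vehicle library and 0 ABT737 libraries over it, and kept its call with no filter (adjusted p = 0.000472). Psmd6, a structural subunit of the lid, was at 52.3 to 70.7 CPM in young and at 0, 28.1 and 29.5 CPM in vehicle libraries, and fell as well (log2 -1.30 ± 0.39, adjusted p = 0.0246). Both zeros belong to vehicle replicate 3, the shallowest library. Psmd7, the partner of Psmd14 in the lid, was at 70 to 101 CPM in young and at 192, 144 and 117 CPM in vehicle libraries, and rose by 0.73 ± 0.24 on the log2 scale (adjusted p = 0.0375), a call that was lost in 5 of 6 alternative analyses. The count of 5 became 2 without young replicate 3 and 3 without vehicle replicate 4. With vehicle replicate 3 left out, the calls of Psme1, Psme4, Psmd14 and Psmd6 held.

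In lung, Psma1 and Psmb3 were the members that rose with age. The median log2 fold change of the 43 tested genes between vehicle and young mice was 0.41, against 0.04 for all genes, and 34 were positive. All 7 alpha, 4 structural beta and 3 catalytic beta subunits had positive values, with medians of 0.94, 0.70 and 0.60. Psma1 and Psmb3 were 2 of 43 members, with 0 lower, beside 8.15% of all genes higher and 4.73% lower. An unadjusted p under 0.05 was found for 15 members, all of them higher, beside 29.8% of all genes in either direction. The alpha subunit Psma1 (chr7:114264550-114276116) was at 14.2, 10.4, 16.8 and 17.2 CPM in young lung and at 43.6, 24 and 37.4 CPM in vehicle lung (log2 1.24 ± 0.34, adjusted p = 0.0274). The structural beta subunit Psmb3 was at 12.8, 9.73, 19 and 5.2 CPM in young and at 43.6, 17.2 and 40.4 CPM in vehicle lung (log2 1.52 ± 0.44, adjusted p = 0.036), and the groups overlapped. Both calls were lost with the replicate number as a block (adjusted p = 0.349 for Psma1 and 0.151 for Psmb3). Whether young and old libraries of 1 number belong together was not checked, here or for later blocks against young mice. In both genes vehicle replicate 4 was the lowest of the vehicle libraries. Without vehicle replicate 4, 13 members were called, 11 higher and 2 lower. None was called without vehicle replicate 3, vehicle replicate 5 or young replicate 1, 2 or 4, 1 was called without young replicate 3, and 6 and 5 were called without ABT737 replicates 4 and 5.

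Among the lung genes that missed the threshold with age, the alpha subunit Psma6 was at 18.6, 12.5, 19.5 and 20.3 CPM in young and at 48.3, 29.6 and 42.3 CPM in vehicle libraries, with no overlap (log2 1.16 ± 0.39, adjusted p = 0.0635). Vehicle replicate 4 was again the lowest vehicle library. The ubiquitin receptor Psmd4 was at 93.7, 88.3, 85.7 and 114 CPM in young and at 130, 117 and 141 CPM in vehicle libraries (adjusted p = 0.195). The core assembly chaperone Psmg3 had the opposite sign, at 57.4, 45.2, 53.7 and 50.4 CPM in young and at 40.2, 38.6 and 40 CPM in vehicle libraries (adjusted p = 0.261). The summed leukocyte markers, all 13 detected in each group and led by Lyz2, were at 681 to 922 CPM in young lung, at 1370 to 3980 CPM in vehicle lung and at 987 to 1820 CPM in ABT737 lung. Their part in the proteasome values of the lung was not tested.

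In skin, Psmd14 changed in the direction opposite to kidney and to liver, where it had passed the filter only with its young libraries. This contrast of skin with other tissues was not tested. Psmd14 was at 34.7, 36.3 and 38.7 CPM in young and at 61.1, 53.4 and 76.4 CPM in vehicle skin. It rose 1.74-fold (log2 0.80 ± 0.19, adjusted p = 0.0326). Of 42 tested genes this 1 rose and 3 fell, beside 5.84% of all genes higher and 5.35% lower, and the median log2 fold change was 0.06 against 0.05 for all genes. Psmb5, the chymotrypsin-like subunit, was at 50.6, 43.7 and 38.2 CPM in young and at 24.6, 18.2 and 25.1 CPM in vehicle skin, and fell 1.95-fold (log2 -0.96 ± 0.24, adjusted p = 0.0359). The alpha subunit Psma3 fell by 0.86 (adjusted p = 0.0374, and 0.0804 with no expression filter) and the ATPase Psmc5 fell by 0.69 (adjusted p = 0.0473) on the log2 scale, a call of Psmc5 that was kept in 2 of 5 alternative analyses. In all 4 genes the groups did not overlap, yet no member was called after leaving out young replicate 1, 2 or 3 or vehicle replicate 5. The count was 2 without vehicle replicate 3 or ABT737 replicate 4, and 1 without vehicle replicate 4 or ABT737 replicate 5.

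The ATPase Psmc6 had the largest positive log2 fold change among the skin genes whose young and vehicle libraries did not overlap, and it was not called. It was at 3.62, 4.03 and 1.36 CPM in young, at 6.15, 7.12 and 10.8 CPM in vehicle and at 6.75, 10.2 and 9.75 CPM in ABT737 skin (vehicle against young log2 1.47 ± 0.45, adjusted p = 0.0636, and ABT737 against young log2 1.59 ± 0.45, adjusted p = 0.0679). The young values stood for 5, 7 and 3 counts. Psmb3 was at 35.5, 33.4 and 35 CPM in young and at 20.2, 12.1 and 21.8 CPM in vehicle skin (log2 -0.94 ± 0.29, adjusted p = 0.0619), a sign opposite to its lung value. Psmd2, a scaffold subunit of the base, was at 151, 138 and 133 CPM in young and at 95.2, 99.9 and 84.7 CPM in ABT737 skin (log2 -0.59 ± 0.18, adjusted p = 0.0775). The groups did not overlap in any of these 3 genes, and whether Psmb3 differed between skin and lung was not tested, because the tables were counted separately.

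The composition of the skin samples differed between the groups as well. The 5 markers of skeletal muscle, led by Acta1 and all detected in each group, summed to 43400 to 61400 CPM in young skin, 6730 to 30500 CPM in vehicle skin and 10900 to 34000 CPM in ABT737 skin. The part of muscle content in the skin values was not tested. In the skin annotation, 21 of the 45 genes overlap another gene, 10 of them on the same strand, against 5 and 2 in the table of the other tissues. Psmb5 also shares 56.7% of the 40-base words in its last 300 bases with the transcript Gm3375, and use of strand in counting is not stated.

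**Figure D2:**
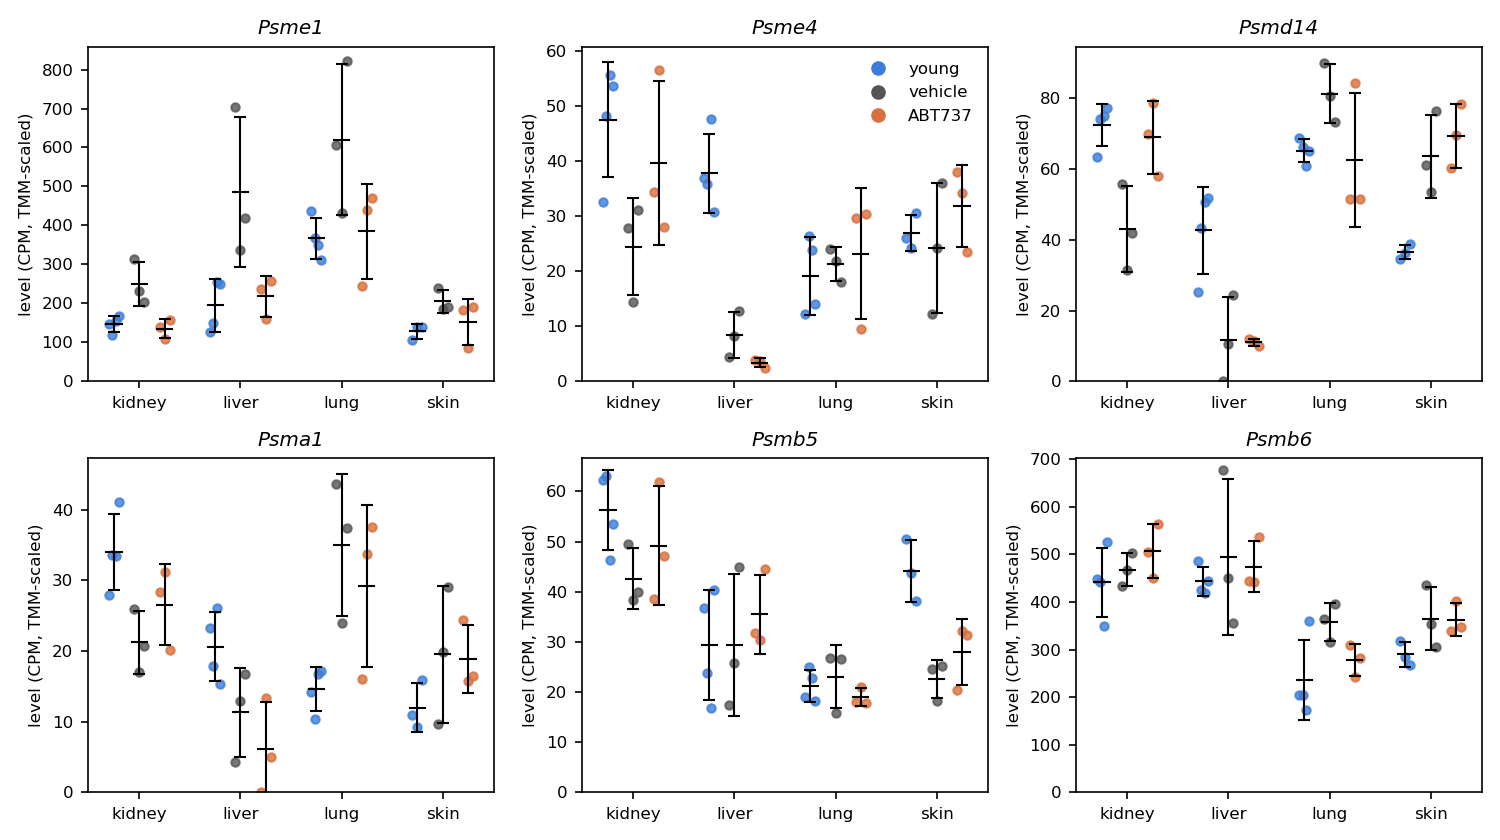
Levels in every library (CPM scaled by the trimmed mean of M values, axes from 0) of the activators Psme1 and Psme4, the lid deubiquitinase Psmd14, the alpha subunit Psma1 and the catalytic subunits Psmb5 and Psmb6. Points are libraries, lines with bars are the mean and SD, and bars are cut off at 0. The mean of Psme1 is highest in the vehicle group of each tissue, Psme4 is lower in both old groups of liver, and Psmd14 is lower in vehicle kidney and liver but higher in both old groups of skin.

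Whether the age difference itself differed between tissues was tested in a single model of kidney, liver and lung, a comparison added after the values had been seen. Between kidney and liver no member differed, beside 0.786% of all genes, and 0 had an unadjusted p under 0.05, beside 11.4% of all genes. Against lung, 5 members had a lower vehicle to young ratio in kidney and 0 a higher one, beside 3.32% and 4.72% of all genes. These were Psma1 (log2 difference -1.90 ± 0.44, adjusted p = 0.00853), Psma5, Psmb3, Psmb7 and Psmd12, all but the last of them core subunits. With no expression filter the calls of Psmb7 (adjusted p = 0.0505) and Psmd12 (adjusted p = 0.0823) were lost. In liver 9 members had a lower ratio than in lung and 1 a higher one, beside 5.3% and 6.13% of all genes. Psmd14 (-1.85 ± 0.46, adjusted p = 0.00746), Psma2 (-1.77 ± 0.47, adjusted p = 0.0127) and Psme4 (-2.12 ± 0.57, adjusted p = 0.014) were among the lower ones and Psmd7 (1.22 ± 0.31, adjusted p = 0.00831) was the higher one. The median difference over the 43 genes was -0.60 for kidney against lung and -0.53 for liver against lung, beside -0.01 and 0.09 for all genes. These contrasts share the lung libraries. The first count lay between 1 and 12 and the second between 5 and 12 when single libraries were left out, and Psma1 against kidney and Psma2, Psmd7 and Psmd14 against liver kept their calls in all 30 such fits. Vehicle replicate 4 of the lung gave the highest of the kidney counts (12 without it), and leaving out kidney young replicate 2, kidney vehicle replicate 4 or 5 or lung vehicle replicate 5 gave 1. The liver count was 5 without liver vehicle replicate 4 and 6 without liver young replicate 3 or lung vehicle replicate 5.

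Between ABT737 and vehicle mice a single constitutive proteasome gene was called, and that in kidney. Psme1 was at 314, 233 and 203 CPM in vehicle and at 140, 109 and 157 CPM in ABT737 kidney. It fell 1.85-fold (log2 -0.89 ± 0.19, adjusted p = 0.0279), so that every ABT737 library lay below every vehicle library and within or below the young range of 119 to 167 CPM. In all, 0 of 42 genes were higher and 1 lower, beside 0.135% and 1.21% of all genes, and the median log2 fold change was 0.12 against 0.01. The call of Psme1 was lost without vehicle replicate 4 and without ABT737 replicate 3 or 4 (largest adjusted p 0.113) and with only the vehicle and ABT737 libraries in the fit (adjusted p = 0.0986), and without vehicle replicate 3 a second member passed. Psmd14 was at 69.9, 78.7 and 58.1 CPM in ABT737 kidney, above each vehicle library, with a log2 value of 0.66 that did not pass (adjusted p = 0.119).

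The other tissues gave no called member under treatment. In liver Psme1 was at 238, 159 and 257 CPM in ABT737 libraries, all below the vehicle libraries at 336 to 703 CPM, with a log2 value of -1.14 ± 0.33 (adjusted p = 0.0707). Of the 38 liver genes 0 were called, beside 3.85% of all genes, and DESeq2 called 0. An unadjusted p under 0.05 was found for 2, both lower, beside 16.1% of all genes in either direction. In lung Psme1 was at 606, 433 and 821 CPM in vehicle and at 246, 440 and 471 CPM in ABT737 libraries, and in skin at 239, 186 and 191 CPM and at 182, 85.8 and 191 CPM. The groups overlapped in both. In lung 0 of 43 members and 0% of all genes were called, and in skin 0 of 42 members and again 0% of all genes. Unadjusted p-values under 0.05 were found for 1 higher and 4 lower members in lung, beside 16.1% of all genes in either direction. In skin they were found for 1 higher and 0 lower, beside 7.97% of all genes, and DESeq2 called 0 in both tissues. The median log2 fold change in lung was -0.36 against 0.04 for all genes, with 33 of 43 values negative, and in skin 0.10 against 0.04. Leaving out ABT737 replicate 4 of the lung, a library in which 4 adipocyte markers summed to 4290 CPM against at most 170 CPM in the other lung libraries, gave 1 lower member. The treatment difference was also compared between tissues. No member differed between kidney and liver, kidney and lung or liver and lung, beside 0.0839%, 0% and 0.29% of all genes. An unadjusted p under 0.05 was found for 6, 6 and 2 of the 43 members, beside 7.35%, 9.3% and 12.3% of all genes.

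Some members that missed the threshold under treatment nevertheless had groups that did not overlap. In lung the core assembly chaperone Psmg2 was at 38.9, 54.9 and 43.8 CPM in vehicle and at 19.3, 29.5 and 24.6 CPM in ABT737 libraries (log2 -0.92 ± 0.27, adjusted p = 0.142). The lid subunit Psmd13 was at 97.3, 99.5 and 123 CPM in vehicle lung and at 71.5, 85.4 and 62.6 CPM in ABT737 lung (adjusted p = 0.313). Both were lower in each of the 3 treated libraries than in any vehicle library. Kidney held base assembly chaperones with opposite signs. Psmd9 was at 38.9, 41 and 34.3 CPM in vehicle and at 25.2, 30.2 and 25.4 CPM in ABT737 kidney (log2 -0.49 ± 0.18, adjusted p = 0.208), and Psmd5 was at 30.6, 30.1 and 28.6 CPM and at 37.5, 50 and 41.5 CPM (log2 0.53 ± 0.21, adjusted p = 0.25).

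**Figure D3:**
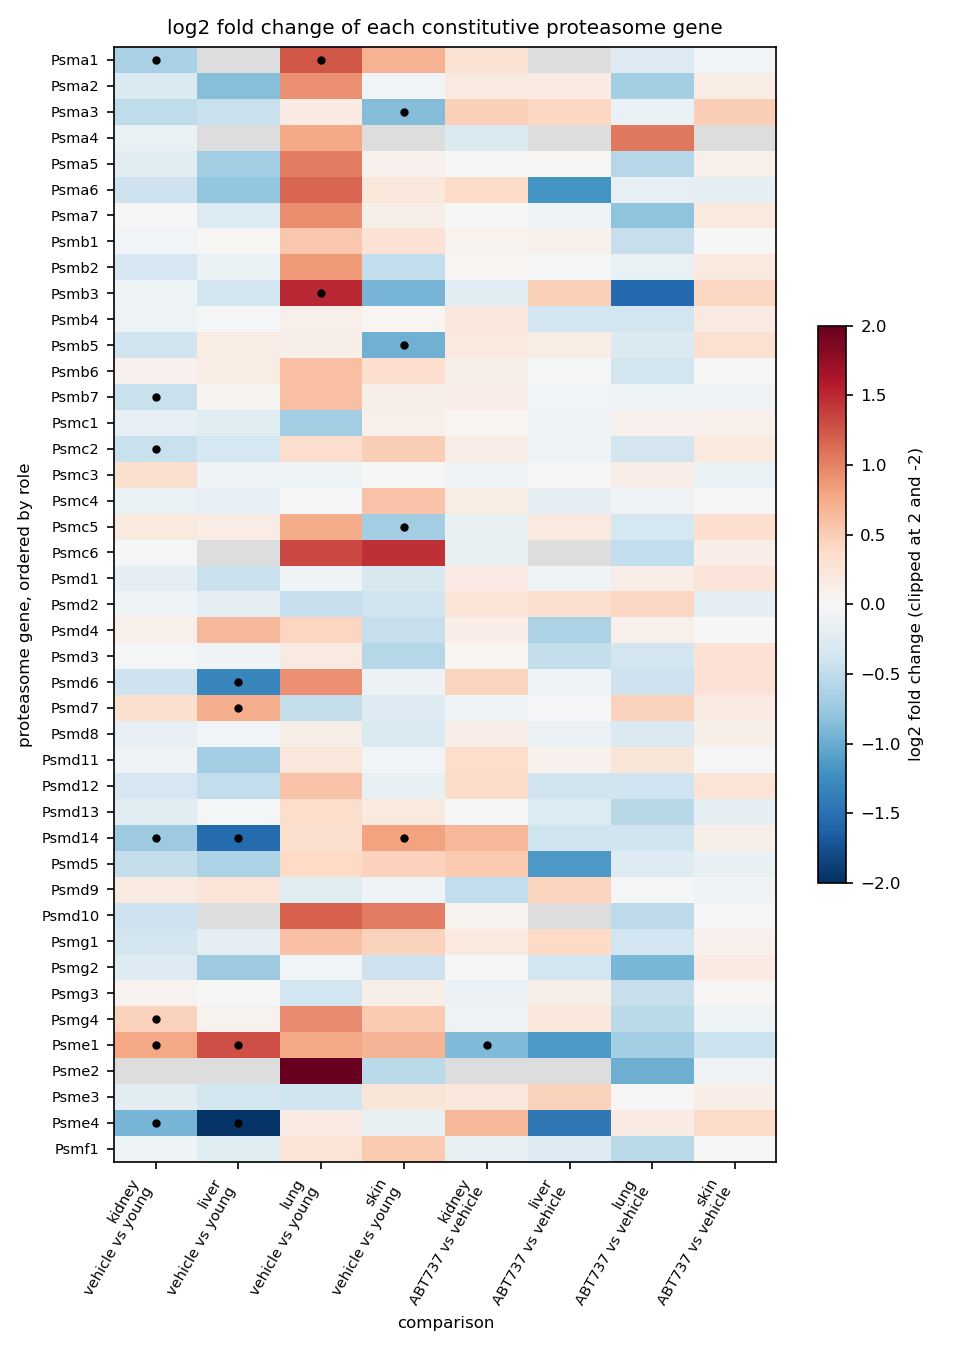
Log2 fold change of each of the 43 constitutive proteasome genes tested in some tissue (rows, by role from alpha subunits at the top to activators at the bottom) in the 4 age and the 4 treatment comparisons (columns). Colours are clipped at 2 and -2, grey marks genes not tested, and dots mark adjusted p under 0.05. Age comparisons hold 18 dots in all 4 tissues, treatment comparisons 1, for Psme1 in kidney, and the lung age column is mostly positive.

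Treated old mice were also set beside the young mice that served in the age comparison above. In liver 0 members were higher and 3 lower, beside 3.13% and 5.27% of all genes. Psme4 was at 3.96, 3.79 and 2.48 CPM in ABT737 liver, which stands for 1, 2 and 1 counts, so the ratio to young liver (90 counts) was 0.0886 with an exact 95% interval of 0.0236 to 0.235 that covers counting error only. It was lower in 3 of 3 libraries (adjusted p = 0.00107). Psmd14, at 11.9, 11.4 and 9.9 CPM, was lower too (log2 -1.95 ± 0.51, adjusted p = 0.0272), as was the lid subunit Psmd12 (log2 -0.89 ± 0.25, adjusted p = 0.0355), whose call was lost with no expression filter (adjusted p = 0.062) and whenever any young or ABT737 library was removed. Psme4 and Psmd14 again entered the test through the young libraries. The count became 1 when any of ABT737 replicates 3 to 5 or young replicates 2 to 4 was left out, with Psme4 kept each time, and 7 without vehicle replicate 3.

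Kidney gave no called member between ABT737 and young mice, beside 2.12% of all genes, and DESeq2 called 0. At an unadjusted p under 0.05, 1 was higher and 2 lower, beside 16.7% of all genes in either direction. In lung the alpha subunit Psma4 was higher, 1 of 43 beside 2.15% of all genes, and 0 were lower beside 0.402%. It passed the filter of the lung, 5.18 CPM in at least 3 libraries, only with its 3 ABT737 libraries, where it was high, and could not be tested with at least 10 counts in every library. It rested on 6 to 33 counts in ABT737 and 3 to 8 counts in young libraries (log2 1.82 ± 0.44, adjusted p = 0.0457). The call of Psma4 was lost with the replicate number as a block (adjusted p = 0.343). It was also lost in 7 of 10 repeats with a library removed, every young library, vehicle replicate 3 and ABT737 replicates 3 and 5 among them. The lung count was 2 without vehicle replicate 4 and 3 without vehicle replicate 5 or ABT737 replicate 4. In skin Psmd14, at 60.2, 69.7 and 78.3 CPM (log2 0.92 ± 0.19, adjusted p = 0.0332), and the ATPase Psmc2, at 199, 240 and 231 CPM against 139, 126 and 150 CPM in young skin (log2 0.69 ± 0.17, adjusted p = 0.0496, kept in 2 of 5 alternative analyses), were higher. These were 2 of 42 members, with 0 lower, beside 2% of all genes higher and 3.17% lower. None was called without any of the young libraries, vehicle replicate 3 or ABT737 replicate 4 or 5, 1 without vehicle replicate 4, and 4 without ABT737 replicate 3.

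Further members had ABT737 and young libraries that did not overlap, without being called. In lung Psmg2, at the ABT737 levels given above, was at 48.1, 45.2, 41.8 and 55.6 CPM in young libraries (log2 -0.97 ± 0.26, adjusted p = 0.0609), and Psmg3 was at 27.1, 31.6 and 27.7 CPM in ABT737 libraries (log2 -0.85 ± 0.23, adjusted p = 0.0639). In liver Psma6 was at 40.7, 19.4, 44.5 and 15.3 CPM in young and at 0, 9.48 and 9.9 CPM in ABT737 libraries, the latter from 0, 5 and 4 counts (adjusted p = 0.0818). It passed the filter only with its young libraries, where it was high. The chaperone Psmd9 was at 27.1, 29.8, 38.4 and 30.7 CPM in young and at 47.6, 64.5 and 39.6 CPM in ABT737 liver (log2 0.70 ± 0.28, adjusted p = 0.135). For Psma6 and Psmd9 in liver the nearest libraries of the groups were close, 9.9 against 15.3 CPM and 39.6 against 38.4 CPM.

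Of the 3 constitutive catalytic subunits, Psmb7 was called with age in kidney and Psmb5 in skin, and none was called under ABT-737 in any tissue. In kidney, Psmb6 was at 448, 441, 349 and 526 CPM in young, at 433, 467 and 503 CPM in vehicle and at 504, 451 and 564 CPM in ABT737 mice. Psmb5 was at 62.2, 63.1, 46.3 and 53.5, at 49.5, 38.3 and 39.9 and at 38.5, 61.9 and 47.2 CPM in the same order. Psmb7, the subunit with the call there, was at 166, 177, 162 and 182, at 119, 125 and 133 and at 140, 117 and 155 CPM. The vehicle and young ranges were apart for Psmb7 alone. In liver Psmb6 was at 486, 425, 419 and 443 CPM in young, at 676, 451 and 356 CPM in vehicle and at 444, 442 and 537 CPM in ABT737 mice. Psmb5 was at 36.8, 23.8, 16.9 and 40.3, at 17.5, 25.8 and 45 and at 31.7, 30.3 and 44.6 CPM, and Psmb7 at 130, 99.8, 95.2 and 74.8, at 91.6, 114 and 101 and at 119, 108 and 74.3 CPM. All these liver groups overlapped. In lung Psmb6 was at 205, 204, 173 and 359 CPM in young, at 364, 315 and 395 CPM in vehicle and at 310, 242 and 283 CPM in ABT737 mice, with young replicate 4 standing among the vehicle libraries. Psmb7 in lung was at 76, 73.7, 72.2 and 75.9, at 131, 109 and 99.9 and at 72.8, 166 and 82.8 CPM, and Psmb5 at 19.1, 25, 22.8 and 18.2, at 26.8, 15.9 and 26.6 and at 18, 21.1 and 17.9 CPM. No lung difference of these 3 genes passed the test. In skin Psmb6 was at 319, 284 and 267, at 436, 354 and 305 and at 339, 402 and 348 CPM, and Psmb7 at 160, 142 and 146, at 151, 164 and 170 and at 188, 128 and 148 CPM, while Psmb5, described above, reached 20.5, 32.1 and 31.4 CPM in ABT737 skin.

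The inducible subunits Psmb8, Psmb9 and Psmb10, which are not members, changed as well. All 3 rose with age in kidney, liver and lung and Psmb10 did in skin, and all 3 fell under ABT-737 in kidney and Psmb8 and Psmb10 in liver, where Psmb8 gave log2 values of 2.16 with age and -1.75 with treatment. The treatment calls of Psmb8 and Psmb10 in liver were lost without ABT737 replicate 3 or 4 and with only the vehicle and ABT737 libraries in the fit (adjusted p = 0.0622 and 0.105). With age, Psmb10 lost its call in lung without vehicle replicate 5 (adjusted p = 0.079) and in skin without young replicate 1 or 2 or vehicle replicate 3 or 5 (largest adjusted p 0.0964). With the replicate block, lung Psmb9 and Psmb10 were at adjusted p = 0.0593 and 0.0875. Their share of all catalytic subunit counts was 14.6 ± 2.06% in young, 43.9 ± 11.0% in vehicle and 17.2 ± 1.08% in ABT737 kidney (SD, n = 4, 3 and 3). Liver gave 31.3 ± 4.18, 58.1 ± 8.18 and 29.6 ± 9.25%. Lung gave 56.0 ± 8.74, 75 ± 3.81 and 58.0 ± 15.1%, and skin 27.5 ± 4.2, 40.5 ± 4.15 and 27.9 ± 8.06%. Vehicle libraries lay above young libraries without overlap in all 4 tissues, and above ABT737 libraries without overlap in kidney, liver and skin. Each of these differences had the smallest exact two-sided permutation p its design allows, 0.0571 against 4 young libraries and 0.1 against 3 libraries (adjusted p = 0.171 over 12 comparisons). The lung treatment difference had p = 0.2 by the same exact permutation test, with ABT737 replicate 5 at 73.7% and the other ABT737 libraries at 43.6 and 56.6%. That test ignores the replicate numbers, which were taken to pair these libraries from the data alone, so the pairing is uncertain. Within the pairs the share was 74.6 and 43.6%, 71.5 and 56.6%, and 79.0 and 73.7% in vehicle and ABT737 lung, lower under ABT-737 in 3 of 3 pairs. These are too few for an exact paired permutation test to give p under 0.05.

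Antigen processing genes that interferon-gamma raises were called higher with age in kidney and liver, where Psme1 was, and in lung and skin, where Psme1 was not called. Of the 10 listed, which include the peptide transporters Tap1 and Tap2 and the transcription factor Irf1, vehicle mice exceeded young mice in 9 of 10 tested in kidney, in 7 of 9 for liver, in 7 of 10 for lung and in 3 of 10 for skin, beside 7.75, 11.7, 8.15 and 5.84% of all genes, and none was lower. Under ABT-737 8 of 10 were lower in kidney and 4 of 9 in liver, beside 1.21% and 2.85% of all genes. In lung and skin 0 were called. Leukocyte markers were also highest in vehicle mice. The 13 listed markers summed to 96.2 ± 8.81 CPM in young, 261 ± 50.4 CPM in vehicle and 123 ± 21.6 CPM in ABT737 kidney, led by Csf1r of macrophages, with the neutrophil gene S100a8 and the B cell gene Cd79a at 0 in young kidney. In liver the sums were 78.7 ± 14.4, 352 ± 96.1 and 69.8 ± 20.2 CPM, again led by Csf1r, and 5, 1 and 7 of the 13 were at 0 in the 3 groups, the T cell gene Cd3g among them in young and ABT737 liver. Lung gave 803 ± 120, 2400 ± 1390 and 1370 ± 420 CPM with no marker at 0, and skin 201 ± 121, 1270 ± 540 and 441 ± 170 CPM, both led by Lyz2 of myeloid cells. Of the markers tested, vehicle mice exceeded young mice in all 8 for kidney and all 3 for liver. They did so in 10 of 13 for lung and 5 of 6 for skin. The shares of all genes higher were 7.75, 11.7, 8.15 and 5.84%. Under ABT-737, 4 of 8 markers in kidney and 3 of 3 in liver were lower, beside 1.21% and 2.85% of all genes. No marker was called under ABT-737 in lung or skin, where 0% of all genes were called. The part of leukocyte content in the Psme1 values was not tested. Red blood cell markers, led by Hbb-bs, summed to 996 to 5860 CPM in young kidney, 11600 CPM in each vehicle kidney and 7560 to 11300 CPM in ABT737 kidney, although the mice had been perfused. In the same order of groups they summed to 396 to 1110, 2720 to 3310 and 1160 to 2530 CPM in liver, to 1420 to 2710, 2250 to 16800 and 5070 to 48100 CPM in lung and to 507 to 598, 1270 to 14700 and 351 to 997 CPM in skin. Their part in the proteasome values was not tested. Psme1 also shares 27.2% of the 40-base words of its last 300 bases with the transcript Gm7776 and overlaps Emc9 on the other strand.

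Partners of the proteasome that do not carry a Psm symbol were called with age in kidney, liver and lung. Of 29 listed genes (ubiquitin genes, shuttle factors, deubiquitinases and regulators of proteasome genes) 27 were tested in kidney, lung and skin and 24 in liver. With age 0 were higher and 2 lower in kidney, beside 7.75% and 5.5% of all genes. The lower ones were the nuclear import factor Akirin2 (log2 -0.93 ± 0.16, adjusted p = 0.00124) and the proteasome-bound thioredoxin Txnl1 (log2 -0.66 ± 0.14, adjusted p = 0.00602). In liver 4 were lower, these 2 and the shuttle factors Rad23b and Ubqln2, and 1 higher, beside 10.8% and 11.7% of all genes. The higher one was Nfe2l1, the factor that drives proteasome genes (log2 0.72 ± 0.20, adjusted p = 0.0161), whose call was lost with DESeq2 (adjusted p = 0.0534) and with no expression filter (adjusted p = 0.119). With only the young and vehicle libraries in the fit, the liver calls of Akirin2 (adjusted p = 0.0503), Rad23b (0.0698) and Txnl1 (0.075) were lost. Txnl1 was also lost in 7 of 10 and Rad23b in 4 of 10 fits with a library left out, and Akirin2 was lost without vehicle replicate 4 or ABT737 replicate 4, whereas Ubqln2 held in all 10. In lung Ngly1, the enzyme that processes Nfe2l1 (log2 1.70 ± 0.47, adjusted p = 0.03), was higher, with overlapping groups, and its call was lost with the replicate block (adjusted p = 0.228). Skin had 0 called with age. Between ABT737 and vehicle mice 0 of these genes were called in any of the 4 tissues, and against young mice Txnl1 and Ubqln2 were lower in liver and Akirin2 was higher in skin (log2 0.98 ± 0.23, adjusted p = 0.042). When a library was left out, these calls were kept in 4 of 10 fits for Txnl1, 7 of 10 for Ubqln2 and 3 of 9 for Akirin2 (largest adjusted p 0.117, 0.0936 and 0.169).

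Young kidney had more of these genes than young lung, and where young liver stood depended on how the libraries were scaled. As a plain share of all counts they took 0.479 ± 0.0108% in kidney, 0.354 ± 0.0153% in liver and 0.353 ± 0.0119% in lung (SD, n = 4 each), and liver and lung overlapped. With TMM factors, which were 1.11 to 1.16 in kidney, 0.708 to 0.728 in liver and 1.2 to 1.27 in lung, the summed level was 4230 ± 169, 4970 ± 218 and 2900 ± 91.6 CPM (n = 4 each), with no overlap between any pair (exact two-sided permutation p = 0.0286 for each, the smallest these 4 against 4 libraries can give, adjusted p = 0.143). Of 42 tested genes 33 were higher in kidney than in lung and 3 lower, beside 38.3% and 36.5% of all genes. Between liver and lung 30 were higher and 2 lower, beside 28.8% and 40.6%, and between kidney and liver 5 were higher in kidney and 9 lower, beside 33.7% and 17.8%. The median log2 fold change was 0.91 for kidney over lung (0.03 for all genes), 0.90 for liver over lung (-0.33) and -0.14 for kidney over liver (0.34). DESeq2 size factors, which moved the median of all genes to -0.14 for kidney over lung, gave 0.73 for the members and 31 higher and 4 lower. On library totals with no scaling factors, an alternative chosen after seeing the data, the median of all genes moved to 1 for kidney over liver and -1.10 for liver over lung. Kidney over liver then had 30 members higher and 1 lower, the opposite of the direction above (median 0.53), and liver over lung 14 higher and 10 lower (median 0.13). Kidney over lung had 32 higher and 4 lower (median 0.80).

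With TMM factors, all 7 alpha, 4 structural beta and 3 catalytic beta subunits were higher in kidney than in lung. Psmb7 averaged 153 CPM in kidney and 59.6 CPM in lung (log2 1.36 ± 0.14, adjusted p = 3.57e-10), and Psmb6 393 and 188 CPM (log2 1.06 ± 0.18, adjusted p = 4.94e-06). The widest gaps were those of the assembly chaperone Psmg1 (log2 2.40 ± 0.21), the structural subunit Psmb3 (2.33 ± 0.25) and the lid subunit Psmd6 (2.26 ± 0.21). Psme4 followed the core, at 42.4 CPM in kidney, 52.2 CPM in liver and 15.3 CPM in lung. Members higher in lung were few. They were Psme1 (131 CPM in kidney and 294 CPM in lung, log2 -1.17 ± 0.17, adjusted p = 5.31e-07), the ATPase Psmc1 and the base scaffold Psmd2 against kidney, and Psmd2 and the nuclear PA28 subunit Psme3 against liver. Psme1 was also lower in kidney than in liver (log2 -1.04 ± 0.18), which was not called on library totals (adjusted p = 0.0719), and the inducible subunits Psmb8, Psmb9 and Psmb10 were lower in kidney than in either tissue. The summed leukocyte markers in this fit were highest in lung, at 544 to 738 CPM. A requirement of at least 10 counts in every library, which leaves fewer genes, gave 16 higher and 7 lower members between kidney and lung.

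**Figure D4:**
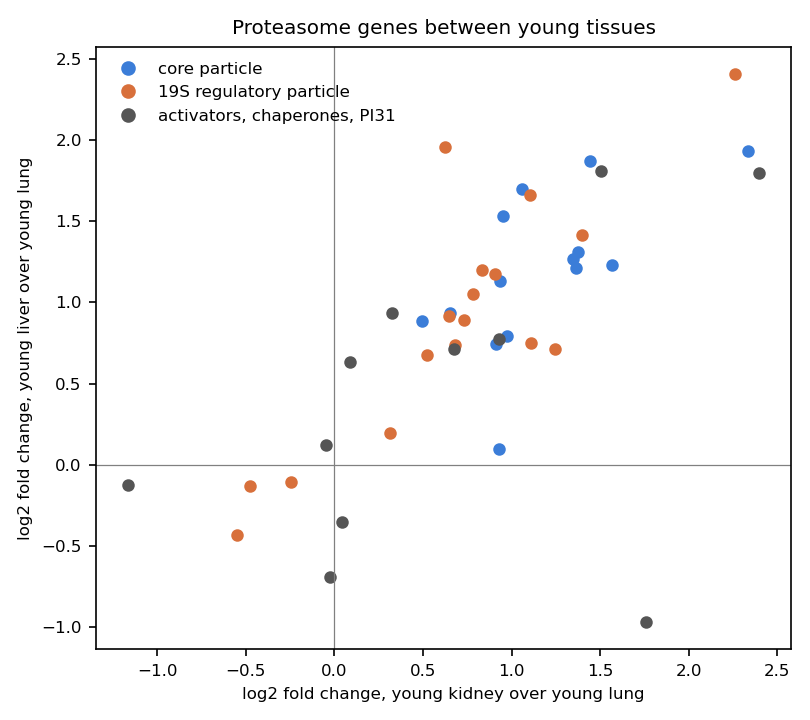
Log2 fold change of the 42 tested proteasome genes in young kidney over young lung (x axis) and young liver over young lung (y axis), coloured by the part of the proteasome. Each point is a gene, both axes share the 4 young lung libraries, and the 14 core subunits (blue) all lie above 0 on both axes with this TMM scaling. The lowest point on the y axis is Psmd10, with 5 counts in the 4 young liver libraries together.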

How the data were processed

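MARS-seq libraries of 3′ transcript ends were made from whole perfused tissues and sequenced on a NextSeq-500. The processing notes name bcl2fastq, HISAT 0.1.5, HOMER and the mm10 build. The values are raw counts per gene that the authors deposited in 2 tables, on RefSeq transcripts for kidney, liver and lung and on Ensembl transcripts for skin, which were counted separately and are not compared. Whether molecule barcodes were collapsed or strand was used is not given in the sources used here. Libraries were grouped by their labels and, within a tissue, taken as separate mice. Where this is not so, p-values measure technical spread only. Libraries of different tissues may come from the same mice, which the labels do not say, and the comparisons between tissues treat them as independent.

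Counts were tested in R 4.3.3 with edgeR 4.0.16 (filterByExpr, TMM, glmQLFit and glmQLFTest, all 3 groups of a tissue in a fit, Benjamini-Hochberg adjustment over all genes tested, adjusted p under 0.05). DESeq2 1.42.0, DESeq2 size factors, other count filters, fits of only the compared groups, a replicate block and leaving out each library were the alternatives. The code was tested on simulated data. Intervals of count ratios are exact at 95% and cover counting error only. The members and lists were chosen with earlier results of these data known. Named genes are Psmb5, Psmb6, Psmb7, Psme1 and Psme2, every called member (up to 8 a comparison) and the extremes among members whose groups do not overlap. Of these extremes, those not called between vehicle and young or between ABT737 and vehicle mice are drawn in the heat map. Most of the uncalled extremes are named. Counts over the other lists cover all their tested genes, of which some are not reported here individually.

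Same-numbered vehicle and ABT737 libraries were checked for pairing by the correlation of their deviations from the group means. It was 0.175, 0.295 and 0.423 in lung, so the numbers were taken to pair the lung libraries, on this evidence from the data alone. Some differently numbered lung libraries reached similar values, 0.293 for vehicle 4 with ABT737 3 and 0.124 for vehicle 3 with ABT737 5. The rest were negative, down to -0.566 for vehicle 4 with ABT737 5. The pairing of the lung libraries is therefore uncertain. Not every pair was above 0.1 in kidney, liver or skin. No library was a duplicate of another.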

Additional observations from a re-analysis of the deposited data

Results flagged for a closer look

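In groups of 4 libraries, single values stood apart from the rest in 2 of the 64 groups tested, where chance flags about 1 in 20. The share of inducible subunits among catalytic subunit counts was 25.1% in young liver replicate 1, against 32.82 to 34.31% in the other young livers. Psma2 was at 31.3 CPM in young liver replicate 2, against 53.8 to 55.6 CPM.

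The age difference, vehicle over young, was lower in kidney than in lung for Psma1 (log2 difference -1.90), Psma5 (-1.29), Psmb3 (-1.62), Psmb7 (-1.06) and Psmd12 (-0.93), by a test of the difference itself. It was lower in liver than in lung for Psma1 (-1.87), Psma2 (-1.77), Psma5 (-1.74), Psma6 (-1.92), Psmb3 (-1.85), Psmd12 (-1.06), Psmd14 (-1.85), Psmd6 (-2.22) and Psme4 (-2.12), and higher for Psmd7 (1.22).

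Skin went against kidney or liver in 3 genes, with groups that did not overlap in either tissue. These differences were not tested, since skin was counted in a separate table. The log2 fold change of Psmc2 was 0.49 in skin and -0.44 in kidney for vehicle over young, and 0.69 and -0.31 for ABT737 over young. For Psmd14 it was 0.80 in skin, -0.73 in kidney and -1.55 in liver for vehicle over young, and 0.92 in skin and -1.95 in liver for ABT737 over young. For Psmd7 it was -0.26 in skin and 0.73 in liver for vehicle over young.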

How the results depend on the processing

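Single genes were followed through the alternatives where they had a call, for the young tissues only the 8 members with the smallest p a comparison. Among those, direction changed for Psmf1 (log2 0.0601), Psmd12 (0.11) and Psmb6 (0.0247) in young kidney against young liver on library totals with no scaling factors, where 31 members were called, and under no other alternative run. Of these tests, 439 kept, 62 lost and 3 reversed the call when the filter, the scaling, the tool, the groups in the fit or the block was changed, and 1197 kept and 260 lost it when a library was left out. The number of called members was sensitive. With DESeq2 it was 5 for liver ABT737 against young, 5 for lung vehicle against young, 3 for lung ABT737 against young, 7 for skin vehicle against young, 4 for skin ABT737 against young and 10 for the age difference of kidney against lung. DESeq2 size factors gave 1 for skin ABT737 against young. Without an expression filter it was 1 for liver ABT737 against vehicle, 6 for liver ABT737 against young, 4 for lung vehicle against young, 2 for skin vehicle against young and 1 for skin ABT737 against young. With at least 10 counts in every library, so that fewer genes were tested, it was 1 for liver ABT737 against vehicle, 2 for liver vehicle against young, 1 for liver ABT737 against young, 0 for lung ABT737 against young, 23 for young kidney against young lung, 2 for the age difference of kidney against lung and 3 for that of liver against lung. With only the compared groups in the fit it was 0 for kidney ABT737 against vehicle, 7 for liver ABT737 against young, 6 for lung vehicle against young and 1 for skin ABT737 against young. The cause was not tested.

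With the replicate number as a block, counts were 0 for kidney ABT737 against vehicle, 0 for kidney vehicle against young, 0 for liver vehicle against young, 1 for liver ABT737 against young, 0 for lung vehicle against young and 0 for lung ABT737 against young. In lung, where numbers were taken to pair vehicle and ABT737 libraries, the block left 0 called between these groups, as without it. Elsewhere, and between young and old mice in lung, the samples share at most a number. For skin against young no block was fitted, as 1 number is shared.

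When a library was left out, counts ranged over 0 to 2 for kidney ABT737 against vehicle, 1 to 7 for kidney vehicle against young, 2 to 6 for liver vehicle against young, 1 to 7 for liver ABT737 against young, 0 to 1 for lung ABT737 against vehicle, 0 to 13 for lung vehicle against young, 0 to 3 for lung ABT737 against young, 0 to 5 for skin vehicle against young, 0 to 4 for skin ABT737 against young, 9 to 18 for young kidney against young liver, 35 to 37 for young kidney against young lung, 28 to 32 for young liver against young lung, 1 to 12 for the age difference of kidney against lung and 5 to 12 for that of liver against lung. The difference in inducible share moved by less than the spread between replicates, with ranges of 23.2 to 33.6 percentage points (kidney), 22.9 to 31.0 (liver), 14.8 to 21.2 (lung) and 10.9 to 15.4 (skin) for vehicle over young. Depth was lowest in liver.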
